A study of Homo sapiens with 6 samples.

Results

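The SF3A and SF3B complexes are the protein part of the U2 small nuclear ribonucleoprotein (U2 snRNP) that holds it on the branch site of an intron. The genes described here were the 10 rows, of 57150 in the deposited expression table, whose symbol was SF3A1, SF3A2, SF3A3, SF3B1, SF3B2, SF3B3, SF3B4, SF3B5, SF3B14 or PHF5A. Each symbol had 1 row, and all 10 were among the 13741 genes with a mean level of at least 1 FPKM (fragments per kilobase of transcript, scaled to the mapped fragments of a library), which are called the genes tested below. The RNA came from K562, a human leukemia cell line, harvested 72 h after transfection of siRNAs. The 3 libraries of one group came from cell pools that received siRNAs against both αCP1 and αCP2, the poly(C)-binding proteins encoded by PCBP1 and PCBP2, and the 3 libraries of the other came from pools that received control siRNAs. Per the study's methods, 2 distinct αCP1/2 siRNAs and 3 distinct control siRNAs were used, and the transfected cells were pools, not clones. The study describes the controls CTRL-1 and CTRL-2 as siRNAs against an unrelated mRNA, GLD-2, and CTRL-3 as non-targeting. It also states that part of the libraries came from its earlier work, with 1 control and 1 αCP1/2 sample added. The study used these libraries to ask which alternative splicing events depend on αCPs. The table gives 1 FPKM and 1 estimated count per group, so that no spread between libraries could be measured and no difference between the columns has a replicate check.

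SF3A consists of SF3A1, SF3A2 and SF3A3. SF3B consists of SF3B1, SF3B2, SF3B3, SF3B4, SF3B5, SF3B14 and PHF5A. Both bind U2 small nuclear RNA to form the mature U2 snRNP, and SF3B clamps the branch-site helix whose bulged adenosine attacks the 5′ splice site in the first step of splicing. SF3B also belongs to the U11/U12 particle, which recognises the rare introns of the minor class. SF3B1 is often mutated in myelodysplastic syndromes and leukemias.

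Total estimated counts were 13699340 for the column labelled KD, called the KD-labelled column below, and 11680567 for the one labelled CTRL. Both are below the mapped pairs that the study lists for any single library. The estimated counts are therefore not all fragments read, and the counting intervals below treat them as if they were. The targeted genes were not both lower in the KD-labelled column. The study reports their depletion for both mRNA and protein. The mRNA levels in these columns do not show it, and the study's own assays of it were not analysed here. PCBP1 was at 184 FPKM in the KD-labelled column and 188 in the CTRL-labelled column, and PCBP2 was at 531 and 342. U2AF2 encodes U2AF65, which the study depleted by siRNA in other experiments. It was at 13.0 FPKM in the KD-labelled column and 85.3 in the CTRL-labelled column. What this means for the column labels was not tested. Of 15 erythroid and K562 markers 7, GATA1, TAL1 and KLF1 among them, were listed at 0 in both columns, and 9 were under 1 FPKM in both; GATA1, TAL1 and KLF1 define the erythroid lineage of this line. The summed level of the 15 was 302 FPKM in the KD-labelled column and 110 in the CTRL-labelled column, and HBE1 (153 and 35.4 FPKM) and TFRC (134 and 65.7 FPKM) made up most of it. EPOR (80 and 104 counts), NFE2 (10 and 20) and LMO2 (4 and 5) had log2 ratios below 0. The exact binomial 95% intervals of their count ratios all included 0. HBG2 and HBA1, also at low counts, had log2 ratios of 1.02 and 1.73, with intervals above 0. Of 8 epithelial markers 4 were over 5 FPKM in both columns, and 3 were under 1 FPKM in both, namely CDH1, CDH3 and KRT19, the last listed at 0. The 8 summed to 4370 and 3190 FPKM, of which the keratins KRT18 (2309 and 1748), KRT8 (1505 and 819) and KRT7 (540 and 604) made up most. In RNA of whole cultures, fewer cells of a type and less RNA per cell cannot be told apart. The part of these values in the differences below was not tested, and every direction below is a direction between columns as they are labelled.

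All 10 subunits were expressed at moderate to high levels, and the subunits of one complex did not share one mRNA level. In the CTRL-labelled column, levels ran from 22.5 FPKM for SF3A2 to 252 FPKM for SF3B14, an 11.2-fold range. In the KD-labelled column they ran from 33.9 FPKM for SF3A1 to 258 FPKM for SF3B2, a 7.60-fold range. By FPKM, the 3 SF3A mRNAs were among the 4 lowest of the 10 in both columns, together with PHF5A, which did not hold by counts per kb of the canonical transcript, where SF3A3 ranked 5 in the KD-labelled column and 4 in the CTRL-labelled column. The 10 levels summed to 1247 FPKM in the KD-labelled column and 1019 in the CTRL-labelled column, of which SF3B2 alone made up 20.7% and 12.7%, respectively.

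SF3B2, SF3B5, PHF5A and SF3A2 each stood 2 places higher in the order of levels in the KD-labelled column than in the CTRL-labelled column. From the highest, this order was SF3B14, SF3B3, SF3B2, SF3B1, SF3B4, SF3B5, SF3A3, SF3A1, PHF5A and SF3A2 in the CTRL-labelled column. SF3B2 and SF3B1 could not be told apart there within their 95% counting intervals (exact Poisson), nor could SF3A1 and PHF5A. In the KD-labelled column the order was SF3B2, SF3B14, SF3B3, SF3B5, SF3B4, SF3B1, PHF5A, SF3A2, SF3A3 and SF3A1, where the intervals of SF3B2 and SF3B14 overlapped, as did those of SF3A2 and SF3A3. These intervals cover counting error only and leave out the spread between cell pools. The order also rests on the transcript lengths used for FPKM. When the counts were divided by the length of the canonical transcript instead, SF3B14 was first in both columns with 2880 and 2817 counts per kb, and SF3B3 had 287 and 391 counts per kb, rank 10 in the KD-labelled column and 7 in the CTRL-labelled column, where its FPKM ranked 3 and 2.

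**Figure D1:**
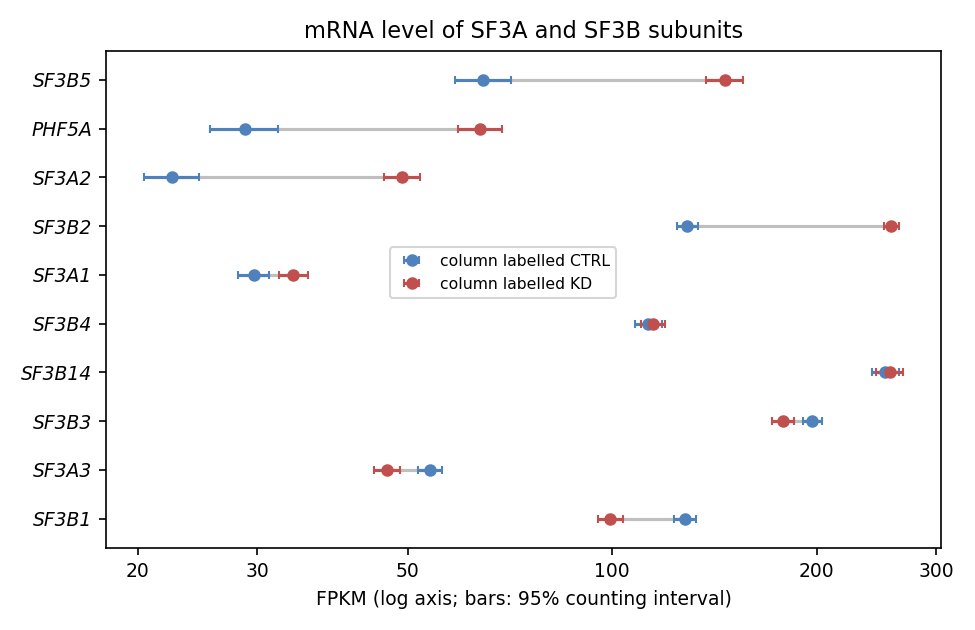
FPKM (log axis) of the 10 subunits in the KD-labelled column (red) and the CTRL-labelled column (blue), with 95% Poisson counting intervals and genes ordered by their ratio. SF3B5, PHF5A, SF3A2 and SF3B2 are separated widely between the columns, from 129 to 258 FPKM for SF3B2, whereas the points of SF3B4 and SF3B14 nearly coincide.

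The 10 subunits fell into a set of 4 with about 2-fold higher levels in the KD-labelled column (SF3B5, PHF5A, SF3A2 and SF3B2) and a set of 6 within a log2 ratio of 0.36 either way. Ratios are given as log2 of the KD-labelled column over the CTRL-labelled column, with 1 added to each FPKM, which understates the change of low genes. A ratio of 1 or more was found for 3 of the 10 (SF3B5, PHF5A and SF3A2), where 8.51% of all genes tested had one, and SF3B2 lay just under that limit at 0.99. A ratio of -1 or less was found for 0 of the 10, against 3.27% of the genes tested. The ratio was above 0 for 7 subunits and below 0 for 3, and their median was 0.10, compared with 0.01 over all genes tested. The spread of the 10 ratios (SD 0.63) was close to that of all genes tested (SD 0.71).

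The SF3A subunits differed from one another. SF3A1 (ENSG00000099995; chr22:30727977-30752883 in GRCh37, minus strand, 16 exons) binds both other SF3A proteins and holds them together. Its level was 33.9 FPKM in the KD-labelled column and 29.7 in the CTRL-labelled column, from 1598 and 1411 counts. The log2 ratio was 0.19, and the ratio of the counts was 0.18 with a 95% interval (exact binomial, counting error only) of 0.08 to 0.28. SF3A1 thus lay slightly higher in the KD-labelled column. Counts divided by the column totals put it at -0.05, still above the median of -0.21 that all genes tested had on that scale.

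SF3A2 (ENSG00000104897; chr19:2236823-2248654, plus strand, 9 exons) is a zinc finger protein needed to join SF3A to the U2 particle. Its level was 49.1 FPKM in the KD-labelled column and 22.5 in the CTRL-labelled column, from 1042 and 452 counts. The log2 ratio was 1.09, and that of the counts 1.20 (95% interval 1.04 to 1.37). The mRNA was therefore about 2.18-fold higher in the KD-labelled column, a difference far outside counting error. It was also the most GC-rich of the 10 transcripts, at 66.5% GC, and among the 464 genes tested that lay within 2 percentage points of that GC content the median log2 ratio was 0.89 and 43.1% had a ratio of 1 or more.

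SF3A3 (ENSG00000183431; chr1:38422647-38455694, minus strand, 17 exons) is the other zinc finger protein of SF3A. It was at 46.5 FPKM in the KD-labelled column and 53.9 in the CTRL-labelled column, from 2002 and 2184 counts. The log2 ratio was -0.21, and that of the counts -0.13 (95% interval -0.21 to -0.04). SF3A3 was the single SF3A mRNA with a ratio below 0.

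In SF3B, the branch-site clamp is formed by SF3B1 with PHF5A, and by FPKM and counts the mRNAs of these partners differed in opposite directions. SF3B1 (ENSG00000115524; chr2:198254508-198299752, minus strand, 25 exons) is the HEAT-repeat scaffold. It was at 99.4 FPKM in the KD-labelled column and 128 in the CTRL-labelled column, from 2154 and 2930 counts, a log2 ratio of -0.36. The ratio of the counts was -0.44 (95% interval -0.52 to -0.36), and SF3B1 was the lowest of the 10 by FPKM ratio. Its ratio was not unusual for its GC content of 40.8%. The 2248 genes tested within 2 percentage points of it had a median log2 ratio of -0.21, with quartiles of -0.47 and 0.08. With a trend in GC content and transcript length removed, SF3B1 was at -0.086 and PHF5A at 1.15.

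PHF5A (ENSG00000100410; chr22:41855721-41864696, minus strand, 4 exons) is a small zinc-binding protein seated in the SF3B1 superhelix beside the branch adenosine. It was at 63.9 FPKM in the KD-labelled column and 28.7 in the CTRL-labelled column, from 710 and 297 counts. The log2 ratio was 1.13, and that of the counts 1.26 (95% interval 1.06 to 1.46). PHF5A was at 22.5% of the FPKM of SF3B1 in the CTRL-labelled column and 64.3% in the KD-labelled column. These shares rest on the transcript lengths, and by counts per kb of the canonical transcript they were 62.2% and 202%, with PHF5A above SF3B1 in the KD-labelled column.

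SF3B2 (ENSG00000087365; chr11:65819835-65836779, plus strand, 22 exons), known as SF3b145, binds the pre-mRNA upstream of the branch site together with SF3B4. It had 5724 counts in the KD-labelled column and 2975 in the CTRL-labelled column and had the narrowest counting interval of the 10. Its level was 258 and 129 FPKM, a log2 ratio of 0.99, and the ratio of the counts was 0.94 (95% interval 0.88 to 1.01). SF3B4 (ENSG00000143368; chr1:149895209-149899695, minus strand, 6 exons), the RNA-binding partner of SF3B2, was at 115 and 113 FPKM, a log2 ratio of 0.02. The FPKM of SF3B2 was 1.14 times that of SF3B4 in the CTRL-labelled column and 2.24 times in the KD-labelled column. By counts per kb of the canonical transcript it was 0.756 and 1.14 times, so that which partner was higher in the CTRL-labelled column depended on the lengths used.

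SF3B3 (ENSG00000189091; chr16:70557719-70611571, plus strand, 26 exons) is a large β-propeller protein, and SF3B5 (ENSG00000169976; chr6:144416021-144416710, minus strand, 1 exon) is a very small protein that binds it. Both are also subunits of the SAGA transcription coactivator. SF3B3 was at 178 FPKM in the KD-labelled column and 197 in the CTRL-labelled column, a log2 ratio of -0.14. SF3B5 was at 146 FPKM in the KD-labelled column and 64.6 in the CTRL-labelled column, from 1009 and 442 counts. Its log2 ratio of 1.17 was the highest of the 10, with a count ratio of 1.19 (95% interval 1.03 to 1.36). SF3B5 has no intron in its canonical transcript.

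SF3B14 (ENSG00000115128; chr2:24290456-24299196, minus strand, 4 exons), named SF3B6 in newer annotation and also known as p14, contacts the branch adenosine region and SF3B1. It was at 256 FPKM in the KD-labelled column and 252 in the CTRL-labelled column, from 1875 and 1834 counts. The log2 ratio was 0.02, and the interval of the count ratio, -0.06 to 0.13, included 0. It was the single subunit of the 10 whose interval did so.

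**Figure D2:**
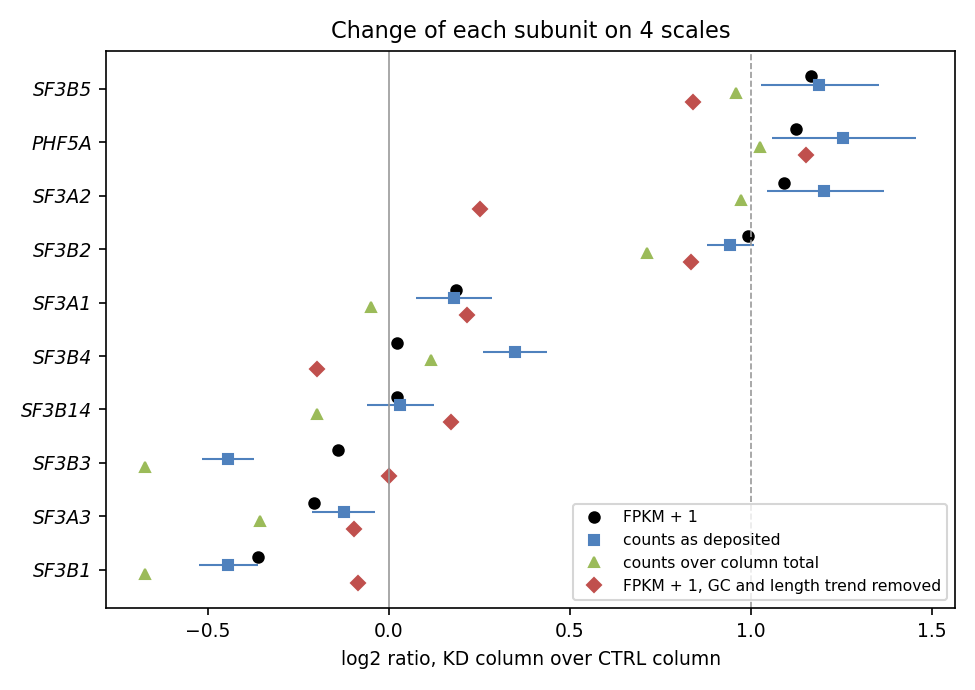
Log2 ratio of the KD-labelled column over the CTRL-labelled column for each subunit, from FPKM, from the deposited counts (with the 95% exact binomial interval), from counts divided by the column totals, and from FPKM after removal of a trend in GC content and transcript length. SF3B5, PHF5A, SF3A2 and SF3B2 lie near 1 by FPKM and counts, and with the trend removed SF3A2 drops to 0.25.

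The FPKM and the counts gave different answers for SF3B3 and SF3B4. The counts of SF3B3 were 2786 in the KD-labelled column and 3791 in the CTRL-labelled column, a log2 ratio of -0.44 (95% interval -0.52 to -0.37), which is 0.30 below its FPKM ratio on the log2 scale. The counts of SF3B4 were 2362 and 1856, a log2 ratio of 0.35 (95% interval 0.26 to 0.44), which is 0.32 above its FPKM ratio. SF3B4 was thus nearly equal between the columns by FPKM and higher in the KD-labelled column by counts, and SF3B3 was lower by either measure but to a different degree. As large a gap in size was found for 11.4% of genes in the case of SF3B3 and 10.04% in the case of SF3B4. Over the 10886 genes with at least 50 counts in both columns, from which these shares come, the median gap was -0.003, with 5th and 95th percentiles of -0.33 and 0.32. The total counts of the columns differed by 0.23 on the log2 scale, so the deposited counts lay on the scale of the FPKM without division by the totals.

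The ratios of all genes tested followed the GC content of the transcript. The subunits ran from 39.2% GC for SF3B14 to 66.5% for SF3A2 and fell in each of the 4 bins below. Among the 13120 genes tested that had a GC content, Spearman's rho between GC content and log2 ratio was 0.46, and from the lowest to the highest of 4 equal bins of GC content the median log2 ratios were -0.24, -0.14, 0.09 and 0.48. A ratio of 1 or more was found for 1.402%, 3.78%, 7.13% and 21.0% of the genes in these bins. Over the 10 subunits rho was 0.67 with GC content and -0.53 with transcript length, as a description of 10 genes that share the same libraries. The subunits of the lowest bin, SF3B1 and SF3B14, had ratios of -0.36 and 0.02, and those of the highest bin, SF3A2 and SF3B5, had ratios of 1.09 and 1.17.

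Set against genes within 2 percentage points of their own GC content, the 4 higher subunits were not alike. SF3A2 lay at percentile 65.3 of such genes. SF3B2 lay at percentile 91.2 of 1560 genes and SF3B5 at percentile 93.3 of 1577. PHF5A, at 47.6% GC, lay at percentile 96.7 of 1833 genes, of which 4.80% had a ratio of 1 or more. After a trend in GC content and transcript length was removed from the log2 ratios of all genes, the value was 1.15 for PHF5A, 0.84 for SF3B5, 0.83 for SF3B2 and 0.25 for SF3A2, so that 1 of the 10 had a ratio of 1 or more. The trend in GC content and the labelled treatment cannot be told apart with 1 value per group.

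**Figure D3:**
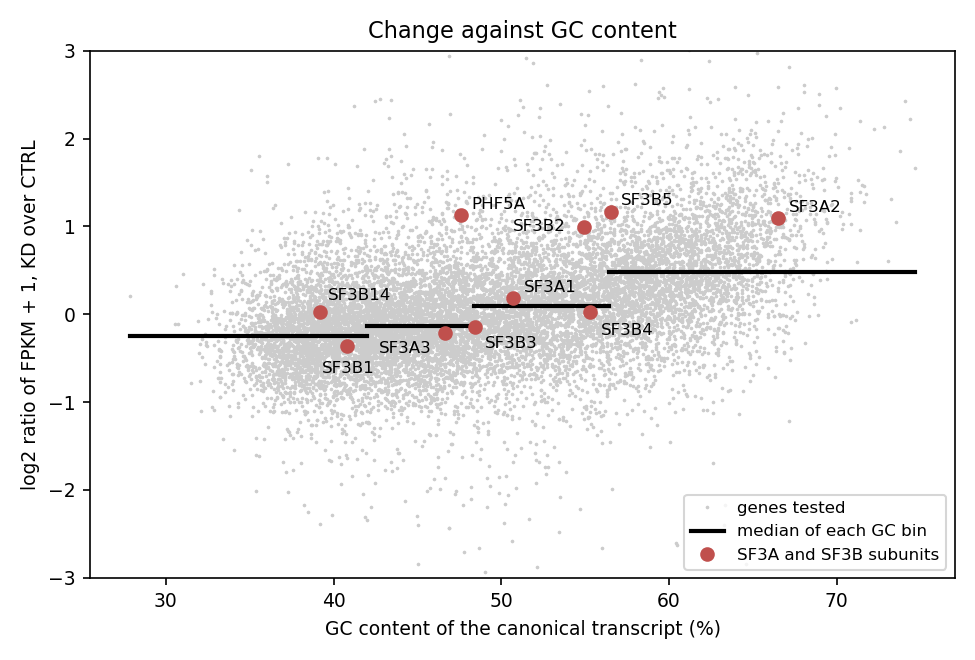
Log2 ratio of each gene tested (grey) against the GC content of its canonical transcript (%), with the median of each of 4 GC bins (black bars, -0.24 to 0.48) and the 10 subunits (red); 45 genes lie outside the vertical range of 3 either way. PHF5A lies well above the median of its bin, whereas SF3A2 sits in the GC-rich bin where the grey points are high.

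Because αCPs bind C-rich sequence, the 50 nt before each internal or last exon of the subunits' canonical transcripts were read from GRCh37. There were 120 such acceptor windows in 9 subunits, SF3B5 having none, and 118445 windows in 10850 genes tested served as the background. The median share of C was 22% in both sets and that of T 38% in both. A run of CCCC was present in 17 of the 120 windows (14.2%), against 23.6% of the background, and a run of TTTT in 82 (68.3%), against 55.1%. More C than T was found in 20 windows (16.7%), against 28.5%. Windows of one gene share its base composition, so these shares are a description of 9 genes and were given no test.

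SF3A2 and SF3B1 stood at the ends of this range. All 8 SF3A2 acceptors held more C than T, with a median C share of 40%, and 4 of them held CCCC and 0 held TTTT. Of the 24 SF3B1 acceptors 0 held more C than T or a CCCC run, the median C share was 11%, and 23 (95.8%) held TTTT. The C-richest acceptor window is given for SF3A2 and SF3B1, which had the highest and the lowest median C share, and for SF3A1 and SF3B2 between them. Sequences run 5′ to 3′ on the transcribed strand and end in the acceptor AG, and capitals mark CCCC.
SF3A2, intron before exon 9, chr19:2247716-2247765 (plus strand): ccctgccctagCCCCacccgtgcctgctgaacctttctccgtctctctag
SF3A1, intron before exon 4, chr22:30741180-30741229 (minus strand): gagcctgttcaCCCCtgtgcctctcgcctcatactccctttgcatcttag
SF3B2, intron before exon 6, chr11:65824259-65824308 (plus strand): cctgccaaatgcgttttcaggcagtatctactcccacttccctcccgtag
SF3B1, intron before exon 24, chr2:198257913-198257962 (minus strand): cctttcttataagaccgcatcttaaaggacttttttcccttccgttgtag

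The window of SF3A2 was 48% C and that of SF3A1 40% C, and both hold a CCCC run well upstream of the AG. The window of SF3B2 was 38% C with no run of CCCC, although short CCC runs lie near its 3′ end. In SF3B1 even the C-richest window was 26% C and was led by T. Splicing of these introns was not measured in the table, and a C-rich window is a description of sequence only.

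**Figure D4:**
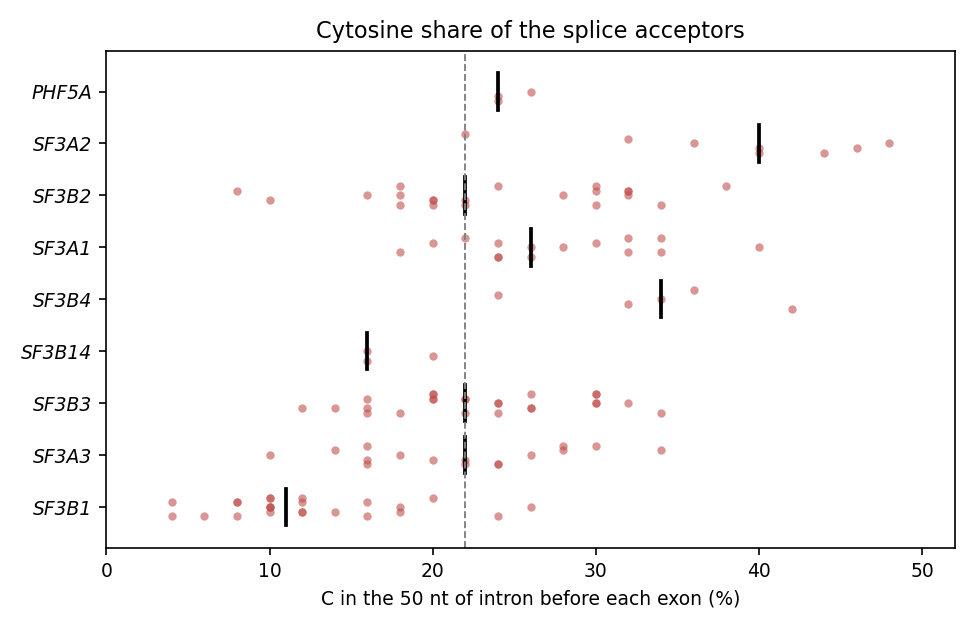
Share of C (%) in the 50 nt before each acceptor of the 9 subunits with introns, 1 point per acceptor, with the median of each gene and the median of all genes tested (22%). The points of SF3A2 lie highest, with a median of 40%, and those of SF3B1 lie lowest, with a median of 11%.

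Promoter windows of 250 nt before the transcription start were taken from RefSeq on GRCh38.p14, where 8 of the 10 genes matched with 9 entries, SF3B1 having a pair of overlapping ones. SF3B3 and PHF5A did not match. CCGGAAG, the core of sites bound by ETS factors such as GABPA, was searched on both strands and found in 6 of the 9 windows (66.7%), against 8.52% of all 35116 windows and 14.8% of 14073 windows of genes tested. GGGCGG, the GC box bound by SP1, was also in 6 of the 9 (66.7%), against 64.2% of windows of genes tested, CCAAT was in 1 (11.1%), against 33.3%, and TATAAA was in 0, against 5.72%. The SF3B14, SF3B2 and SF3B5 windows are shown, as those with the most CCGGAAG matches and the one with CCAAT. Capitals mark matches of any of the 4 motifs on either strand, and none of the 4 contains another.
SF3B14, chr2:24076327-24076576 (minus strand): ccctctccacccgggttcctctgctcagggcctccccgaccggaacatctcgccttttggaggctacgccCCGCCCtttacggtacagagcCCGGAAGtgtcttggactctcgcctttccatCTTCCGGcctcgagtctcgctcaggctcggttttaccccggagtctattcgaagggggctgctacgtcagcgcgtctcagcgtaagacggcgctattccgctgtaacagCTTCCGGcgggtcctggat
SF3B2, chr11:66052114-66052363 (plus strand): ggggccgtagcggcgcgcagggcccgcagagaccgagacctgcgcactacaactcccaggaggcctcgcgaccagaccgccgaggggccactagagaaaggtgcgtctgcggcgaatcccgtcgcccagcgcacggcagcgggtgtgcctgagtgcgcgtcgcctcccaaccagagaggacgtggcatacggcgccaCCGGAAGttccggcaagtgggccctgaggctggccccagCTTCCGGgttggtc
SF3B5, chr6:144095574-144095823 (minus strand): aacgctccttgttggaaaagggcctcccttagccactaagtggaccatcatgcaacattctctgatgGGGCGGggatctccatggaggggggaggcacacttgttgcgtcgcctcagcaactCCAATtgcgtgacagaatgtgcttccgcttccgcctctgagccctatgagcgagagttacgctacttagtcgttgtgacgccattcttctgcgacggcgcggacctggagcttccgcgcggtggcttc

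SF3B14 held 3 matches of CCGGAAG and SF3B2 held 2, and their log2 ratios were 0.02 and 0.99. SF3B5 held 0, with a log2 ratio of 1.17, and SF3B1 held 0 in either entry, with -0.36. Ratios of subunits with and without a match overlapped.

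Lists of proteins that work beside SF3A and SF3B had median log2 ratios from -0.21 to 0.39, with 0.10 for the 10 subunits. Among 9 U2 snRNP and Sm core proteins 5 ratios were above 0 and 4 below, with a median of 0.04, and SNRPD2, an Sm ring protein, was the single one past 1 at 1.47 (1925 and 694 FPKM). Among 13 U2-associated helicases and factors 5 were above 0 and 8 below, with a median of -0.21, and DDX46, the helicase that remodels the SF3B contact with the branch site, was at -1.41 (30.7 and 83.4 FPKM). The list of 5 factors that recognise the 3′ splice site had a median of 0.07, with U2AF2, the large subunit of U2AF, at -2.63 (13.0 and 85.3 FPKM). Each of these 3 lists held ratios on both sides of 0, as did the 10 subunits.

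The 8 proteins of the U11/U12 particle, in which SF3B also resides, had 6 ratios above 0 and a median of 0.39, and none lay past 1 either way: the highest was ZMAT5 at 0.88 and the lowest SNRNP48 at -0.82. Among 15 proteins of the U5 and tri-snRNP particles 9 ratios were above 0, with a median of 0.21, and SART1, which helps the tri-snRNP to join the spliceosome, was at 2.58 (176 and 28.8 FPKM). The counts of SART1 gave a smaller log2 ratio of 1.55 (95% interval 1.403 to 1.69). The 18 SAGA subunits tested, apart from SF3B3 and SF3B5, had a median of 0.13 with 10 above 0, and KAT2A, the acetyltransferase of SAGA, was at 1.09. The counts of KAT2A gave a smaller log2 ratio of 0.85 (95% interval 0.71 to 0.99). SF3B3 and SF3B5, the subunits shared between SAGA and SF3B, lay at -0.14 and 1.17 by FPKM.

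**Figure D5:**
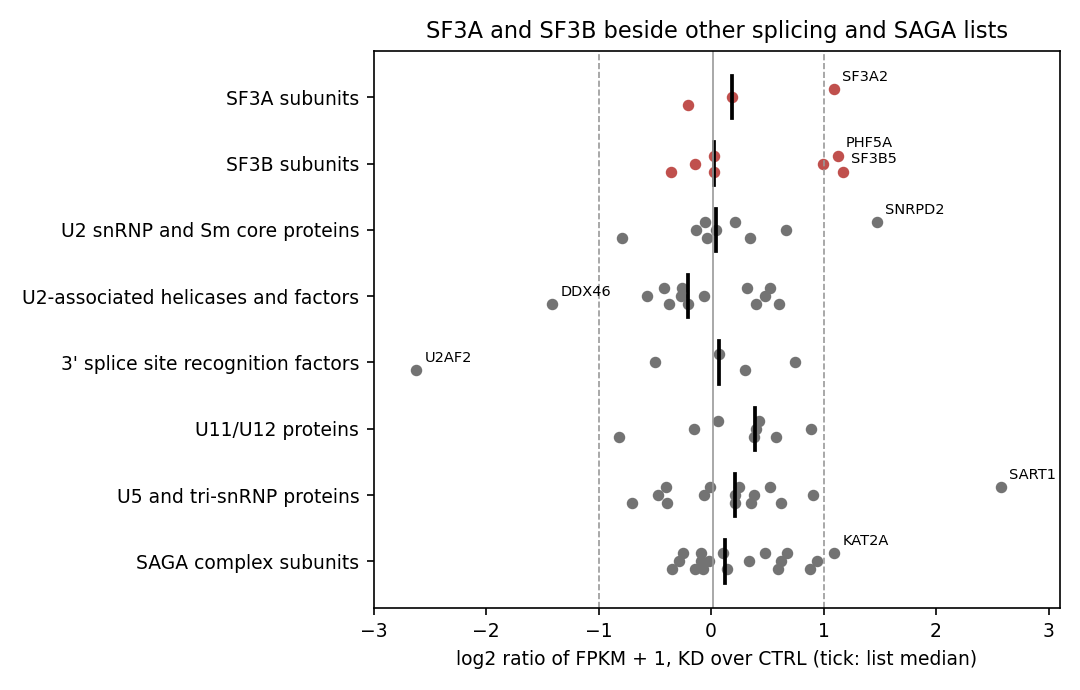
Log2 ratio of the KD-labelled column over the CTRL-labelled column for the SF3A and SF3B subunits and for each companion list, 1 point per gene, with the median of each list (black tick), the median of all genes tested (grey line) and ratios of -1 and 1 (dashed lines). The medians lie between -0.21 (U2-associated) and 0.39 (U11/U12), and SART1, SNRPD2 and U2AF2 lie farthest from the median of their list.

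Reads from other genes could enter the values of 2 subunits. Exons of SF3A1 overlap CCDC157 on the opposite strand over 165 nt (3.24% of the transcript), and those of SF3A2 overlap PLEKHJ1 on the opposite strand over 78 nt (4.82%). The library kit does not mark strand, so that reads within these stretches cannot be assigned to either gene. The other 8 subunits had 0 nt of exon shared with another gene. Pseudogenes of 4 subunits were annotated as 9 rows of the table, where the highest count was 7 and the 9 summed to 11 counts in the KD-labelled column and 16 in the CTRL-labelled column, small beside the counts of 297 to 5724 for the subunits.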

How the data were processed

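RNA-seq of K562 cells came from 3 αCP1/2 siRNA and 3 control siRNA libraries, multiplexed on 1 channel and read as 100 nt pairs. Per the study's methods and the submitters' processing notes, the authors mapped reads with TopHat 1.4.1 to hg19 (Ensembl transcripts) and calculated FPKM with Cuffdiff 2.2.0. The deposited table gives 1 FPKM and 1 estimated count per gene and group for 57150 genes, and how the 3 libraries behind each value were merged is not given in the sources used here. The authors' fold change, p-value, FDR, call, average, maximum and minimum columns were not used.

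Log2 ratios were computed from FPKM + 1 for the 13741 genes whose mean FPKM was 1 or higher. With a single value per group, a linear model across libraries was not possible and p-values are not given. Intervals (95%) were exact binomial for the ratio of the counts and exact Poisson for levels, and cover counting error only. The totals of 13699340 and 11680567 counts are below the mapped pairs that the study lists for any single library. The intervals treat these estimates as if they were the fragments counted, so their width is approximate. The 10 members and the companion lists were chosen with earlier results of these data known. Genes named were all 10 members, the targeted genes, every companion gene with a log2 ratio of 1 or more or of -1 or less (otherwise the highest and lowest of a list) and the markers of the cell type check, with overlapping genes added after their values were seen. Alternatives were a pseudocount of 0.1, an FPKM over 5 in at least 1 column, no filter, the sum of the rows of a symbol, counts divided by the column total, counts scaled by the median ratio, centring on the median, removal of a trend in GC content and length and, added after seeing the data, counts as deposited. Count alternatives used a pseudocount of 1 count. Exons, GC content and acceptor windows came from canonical transcripts of GENCODE release 44 on GRCh37, which is not the annotation used for the FPKM. Promoters came from RefSeq on GRCh38.p14. Functions were tested on simulated data. Values were computed in Python 3.11.15 with pandas 2.3.3, numpy 2.4.6 and scipy 1.17.1, sequences were read with pysam 0.24.0, and matplotlib 3.10.9 drew the figures.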

Additional observations from a re-analysis of the deposited data

How the results depend on the processing

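No paired analysis was possible because the columns carry no replicate numbers and hold a single value per group, and for the same reason no library could be left out. A value is said to move when it shifted by more than its counting interval (genes and medians) or by over 1.5 times (numbers of genes). Across the alternatives no value changed sign from a ratio past 1, and PHF5A moved under none of them. Counts divided by the column totals put the median of all genes tested at -0.21, and values under that scaling should be read against it: SF3A1 was at -0.051, SF3A3 -0.36, SF3B1 -0.67, SF3B2 0.71, SF3B3 -0.67, SF3B4 0.12, SF3B5 0.96 and SF3B14 -0.20, with list medians of -0.17 (U2 snRNP and Sm core), 0.15 (U11/U12), -0.0019 (U5 and tri-snRNP) and -0.049 (SAGA), and 1326 genes at -1 or less. Counts scaled by the median ratio gave SF3B1 -0.47, SF3B2 0.92, SF3B3 -0.47 and SF3B4 0.33, medians of 0.24 (10 subunits), -0.084 (U2-associated) and 0.25 (3′ splice site), and 791 genes at -1 or less. Counts as deposited, added after seeing the data, gave SF3B1 -0.44, SF3B3 -0.44 and SF3B4 0.35, medians of 0.26, -0.062 and 0.27 for the same lists, and 756 genes. After the GC and length trend was removed, SF3A2 was at 0.25, SF3A3 -0.10, SF3B1 -0.086, SF3B2 0.83, SF3B3 0.00051, SF3B4 -0.20, SF3B5 0.84 and SF3B14 0.17, the U2 snRNP and Sm core median was 0.19, and 641 genes were at 1 or more (1169 in the FPKM ratios). The number at -1 or less was 450 in the FPKM ratios, 791 with a pseudocount of 0.1 and 292 with an FPKM over 5 in at least 1 column. Of the 10 subunits, 3 were at 1 or more under a pseudocount of 0.1, centring, counts as deposited and counts scaled by the median ratio, and 1 was under counts divided by the totals and under removal of the trend. The causes were not tested. Sign changes of values near 0 were found for SF3A1, SF3B14 and the medians of 3 lists under division by the totals, and for SF3B3 and SF3B4 with the trend removed.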
